A study of Homo sapiens with 4 samples.

Results

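S100 genes were examined in 2 human lung cancer lines, H1299 and A549, each transfected with hMOF siRNA or with a scramble control siRNA. The 10 genes described are S100A2, S100A3, S100A4, S100A6, S100A10, S100A11, S100A13, S100A14, S100A16 and S100P, out of 20 S100 genes that had a probe set annotated to a single gene and out of 19775 such genes in all. They are read by 13 of the 54675 probe sets on the array. They were selected on their signals on these same arrays, with the contrast between the lines and the contrast between the siRNAs both in view, so their values are given as a description and without a test.

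hMOF, encoded by KAT8, is a histone acetyltransferase that acetylates histone H4. The groups were H1299 cells with hMOF siRNA, H1299 cells with scramble siRNA, A549 cells with hMOF siRNA and A549 cells with scramble siRNA, with 1 array each and 4 arrays in all. Both lines were kept in DMEM with 10% fetal bovine serum and received their siRNA with Lipofectamine 2000. H1299 came from a lymph node metastasis and A549 from a lung adenocarcinoma, so the contrast between them is that of 1 line against 1 line and stands for no wider class of tumours. No group was replicated, so a ratio of 2 arrays carries no error of its own. Any p-value rests on the spread between these 4 arrays, pooled in large part over all genes, and not on replicates.

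S100 proteins are small calcium sensors with a pair of EF-hand loops that bind calcium. They have no enzyme activity: calcium opens a surface on the dimer that docks on target proteins, among them annexins and non-muscle myosin, and several members also act outside the cell on receptors such as RAGE. Most S100 genes lie side by side on human chromosome 1, and many are used as markers in lung and other carcinomas because their levels differ widely between tumours.

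Of the 10 genes, 9 lie on chromosome 1 and S100P lies on chromosome 4. Promoters are shown for 5 of them: S100A6, S100A4 and S100P, which were lower in H1299, S100A2, which was higher there, and S100A10, which stayed within 2-fold. All 10 genes matched a RefSeq promoter entry, 14 entries in all, each running from 250 bases before an annotated start to 50 bases after it (RefSeq, build GRCh38.p14). Capitals mark matches on either strand to the letters TATAAA for the TATA box, GGGCGG for the GC box or TGANTCA for AP-1, N being any base. Positions are counted back from the start, −1 being the base just before it.
S100A6, chr1:153535942-153536241, minus strand: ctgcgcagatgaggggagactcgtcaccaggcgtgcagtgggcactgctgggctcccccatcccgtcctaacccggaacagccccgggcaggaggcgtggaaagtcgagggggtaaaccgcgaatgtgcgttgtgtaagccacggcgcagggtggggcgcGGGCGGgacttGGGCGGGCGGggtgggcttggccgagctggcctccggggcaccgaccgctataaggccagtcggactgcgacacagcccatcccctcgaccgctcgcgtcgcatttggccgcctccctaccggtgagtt
S100A10, chr1:151993810-151994109, minus strand: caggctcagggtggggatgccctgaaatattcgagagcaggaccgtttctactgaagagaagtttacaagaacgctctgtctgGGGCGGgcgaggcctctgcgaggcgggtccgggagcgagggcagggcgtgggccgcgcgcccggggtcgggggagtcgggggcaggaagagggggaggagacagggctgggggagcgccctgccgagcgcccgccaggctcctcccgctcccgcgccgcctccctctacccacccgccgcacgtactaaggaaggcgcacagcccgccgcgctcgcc
S100A4, chr1:153545757-153546056, minus strand: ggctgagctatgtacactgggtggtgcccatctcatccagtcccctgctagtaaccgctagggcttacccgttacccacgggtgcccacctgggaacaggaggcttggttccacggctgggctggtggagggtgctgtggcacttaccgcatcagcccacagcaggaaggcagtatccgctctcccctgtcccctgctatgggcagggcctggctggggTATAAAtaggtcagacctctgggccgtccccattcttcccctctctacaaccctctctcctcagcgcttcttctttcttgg
S100P, chr4:6693628-6693927, plus strand: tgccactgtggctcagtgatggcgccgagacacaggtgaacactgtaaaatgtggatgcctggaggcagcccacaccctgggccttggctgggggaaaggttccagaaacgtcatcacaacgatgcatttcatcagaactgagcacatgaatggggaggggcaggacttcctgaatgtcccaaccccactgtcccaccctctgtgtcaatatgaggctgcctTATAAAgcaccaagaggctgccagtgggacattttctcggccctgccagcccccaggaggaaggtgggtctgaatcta
S100A2, outermost of 2 starts, chr1:153565795-153566094, minus strand: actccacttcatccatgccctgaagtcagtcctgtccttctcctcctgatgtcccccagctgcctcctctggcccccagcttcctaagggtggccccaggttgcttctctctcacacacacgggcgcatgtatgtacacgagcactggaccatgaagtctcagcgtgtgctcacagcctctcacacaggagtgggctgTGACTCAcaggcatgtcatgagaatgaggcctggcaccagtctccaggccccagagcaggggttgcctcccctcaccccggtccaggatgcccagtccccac

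The promoters differed in make-up. The S100A6 promoter held 31 CpG dinucleotides and 3 GC box matches, at −90, −79 and −75, the last 2 of which overlap. The S100A10 promoter held 32 CpGs and 1 GC box match at −167, whereas S100A4, S100P and S100A2 held 8, 5 and 5 CpGs. Over all 35116 promoter entries of the same length the median was 14 CpGs. S100A4 and S100P each had a TATA box match, at −31 and −28, which 11.5% of all promoters have somewhere in this window. S100A2 had an AP-1 match at −52, found in 7.71% of all promoters, and a GC box match was found in 45.0%. Among the promoters not shown, the 2 S100A16 starts held 3 and 8 CpGs, with a GC box match at −45 of the second. S100A11 held 22 CpGs and a GC box match at −68, the outermost of 3 S100A13 starts held 19 and a GC box match at −138, and the second held 11 and a TATA box match at −29. S100A3 held 5 with an AP-1 match at −225 and a GC box match at −142, and S100A14 held 5 with no match. S100A6 and S100A10 had similar CpG counts. Whether promoter make-up goes with the line differences given further on was not tested. A match describes the letters of the window and is not a measured binding site.

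Signals are MAS5 intensities, a linear summary of the probes of each probe set, and levels of different probe sets cannot be set against each other. The lower quartile of all probe sets was 35.0 and 34.1 on the H1299 arrays (hMOF siRNA and scramble) and 36.6 and 35.6 on the A549 arrays. The array medians ran from 73.3 to 75.4. Log2 ratios were taken after adding 29.06 to each signal, which shrinks the ratios of dim probe sets. A gene was kept when its brightest probe set averaged at least 78.2 over the 4 arrays, which 9 of the 10 genes did. Of these 9, S100A3, S100A6 and S100P passed only through A549, since their H1299 signals alone would have failed the minimum. The treatment tag of 2 of the 4 arrays contradicts their source name, so the siRNA target was used to check the labels taken from the source names. KAT8 signal (221820_s_at) was 61.8 with hMOF siRNA and 241 with scramble in H1299, and 106 with hMOF siRNA and 402 with scramble in A549, which left 25.6% and 26.4% of the scramble signal. A second, dim KAT8 probe set (214885_at), with signals from 39.8 to 61.7, left 64.5% in H1299 and 83.8% in A549.

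The labelled line identity was checked on markers. All 6 epithelial markers were lower in H1299 by limma, 3 of which passed the minimum only through A549, and their summed signal was 2821 and 3740 in H1299 (hMOF siRNA and scramble) against 26546 and 28772 in A549. Those passing only through A549 were EPCAM, CDH1 and KRT19. They had H1299 signals between 7.61 and 33.6, below the lower quartile of each array, against 272 to 1562 in A549. KRT7, KRT8 and KRT18 kept H1299 signals between 105 and 3320, against 5540 to 12920 in A549. Of 4 mesenchymal markers, VIM and ZEB1 were higher in H1299 and CDH2 and FN1 lower, with sums of 19336 and 19890.5 in H1299 against 25670 and 23812 in A549. The 5 leukocyte markers summed to 243 and 251 in H1299 against 348 and 345 in A549, and the 3 endothelial markers to 348 and 378 against 380 and 340. Most of the leukocyte difference lay in CD14, which averaged below the signal minimum. It had 28.0 and 30.4 in H1299 against 116 and 127 in A549. No marker was listed at 0, and no detection calls were used. The epithelial markers move with the line differences given next, and their part in them was not tested. In bulk RNA, fewer cells with a transcript and less of it per cell cannot be told apart.

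H1299 and A549 were compared first, with the same siRNA in both lines. S100A6, S100A4, S100A16, S100P and S100A3 were lower in H1299, S100A2 was higher, and S100A10, S100A13 and S100A14 stayed within 2-fold. With hMOF siRNA in both lines, 6 of the 9 kept genes were at least 2-fold lower in H1299, where 11.9% of the 12825 kept genes were, and 1 was at least 2-fold higher, where 9.71% were. With scramble in both lines the counts were 5 lower, against 11.1% of all genes, and 1 higher, against 9.04%. The median log2 ratio of the 9 genes was −1.81 with hMOF siRNA and −1.47 with scramble, against −0.02 and −0.04 over all genes. Among the genes counted as lower in both contrasts, S100A3, S100A6 and S100P passed the minimum only through A549 and so could only be lower. The genes were also chosen with this contrast in view, so nothing is read from these counts, shares and medians.

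**Figure D1:**
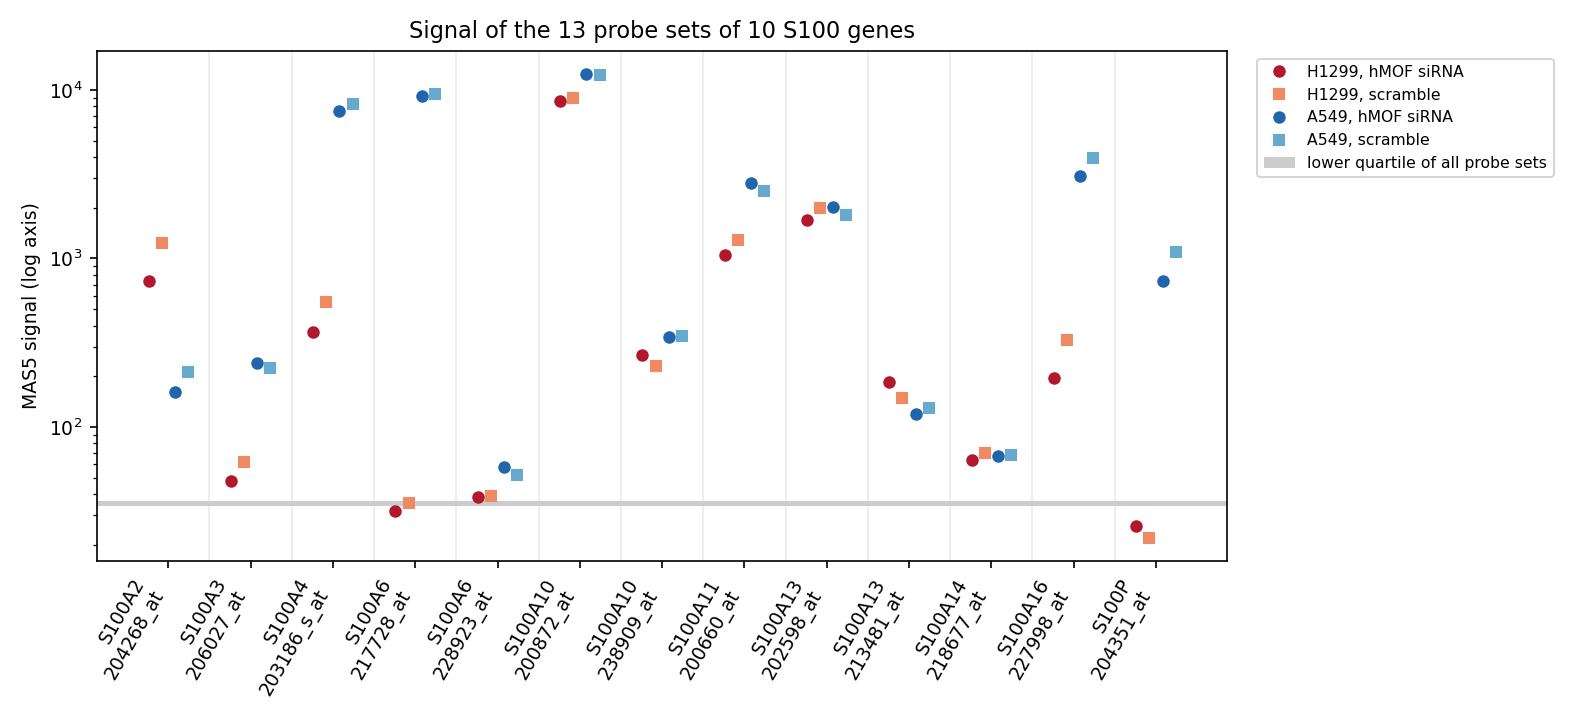
MAS5 signal (log axis) of each of the 13 probe sets on each of the 4 arrays, H1299 in red and orange and A549 in blue, with 1 array per point. The grey band is the range of the arrays' lower quartiles (34.1 to 36.6); in H1299 S100A6 probe set 217728_at lies at or just under it and S100P below it, while in A549 they reach 9153 and 9472 and 740 and 1090.

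S100A6, or calcyclin, is a growth-associated S100 protein that binds the calcyclin-binding protein CACYBP and annexin A11. Its probe set 217728_at gave 31.7 in H1299 with hMOF siRNA and 35.4 in H1299 with scramble, against 9153 in A549 with hMOF siRNA and 9472 in A549 with scramble. The H1299 signal lay at the arrays' lower quartile and the A549 signal far above it, so the lines do not overlap. The log2 ratios were −7.24 and −7.20 with the offset and −8.18 and −8.06 with none, so their size is set by the offset and a dim H1299 signal and is not exact. The other S100A6 probe set, 228923_at, averaged under the signal minimum, at 38.3 and 38.9 in H1299 (hMOF siRNA and scramble) against 57.7 and 51.7 in A549, and so gave log2 ratios of only −0.37 and −0.25.

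S100A4, also called metastasin, binds the heavy chain of non-muscle myosin IIA and is associated with cell migration. Its signal (203186_s_at) was 364 in H1299 with hMOF siRNA and 550.0 with scramble, against 7547 in A549 with hMOF siRNA and 8202 with scramble. Unlike S100A6, it remained well above the lower quartile in H1299, and the log2 ratios of H1299 to A549 were −4.27 and −3.83. S100A16, a broadly expressed member linked to adipocyte differentiation, had signals of 195 and 329 in H1299 (hMOF siRNA and scramble) against 3089 and 3957 in A549. Its log2 ratios were −3.80 and −3.48, so both genes kept a measurable H1299 signal at 4.82% to 8.31% of that in A549.

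S100P, first purified from placenta, binds ezrin and RAGE and is raised in several adenocarcinomas. Its signal (204351_at) was 25.8 and 22.1 in H1299 (hMOF siRNA and scramble), below the lower quartile of both arrays, against 740 and 1090 in A549. The log2 ratios were −3.81 and −4.45, or −4.84 and −5.63 with no offset. S100A3, a cysteine-rich zinc- and calcium-binding protein of the hair cuticle, had signals of 48.0 and 61.8 in H1299 against 240 and 223 in A549 (206027_at), with log2 ratios of −1.81 and −1.47. S100P, the only one of the 10 genes away from chromosome 1, was thus lower in H1299 by an amount that depends on the offset.

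S100A2, a mostly nuclear S100 protein of basal epithelial cells, was the 1 gene of the 10 that was at least 2-fold higher in H1299. Its signal (204268_at) was 731 in H1299 with hMOF siRNA and 1228 with scramble, against 162 in A549 with hMOF siRNA and 212 with scramble. Every H1299 value lay above every A549 value, and the log2 ratios were 1.99 and 2.38. Among all kept genes, 2.40% and 1.81% had a ratio at least as high in these 2 contrasts. As S100A2 was chosen with the line contrast in view, these shares only describe it.

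S100A10 and S100A11 differed less. S100A10, or p11, has lost calcium binding and sits permanently bound to annexin A2, and the complex gathers plasminogen at the cell surface. Its signal (200872_at) was 8636 and 8991 in H1299 (hMOF siRNA and scramble) against 12449 and 12310 in A549, with log2 ratios of −0.53 and −0.45. The dimmer probe set 238909_at gave 267 and 231 in H1299 against 343 and 346 in A549, with ratios of −0.33 and −0.53, so both probe sets were lower in H1299 and neither by 2-fold. S100A11, which binds annexin A1, had signals of 1049 and 1284 in H1299 against 2796 and 2514 in A549 (200660_at). Its log2 ratio was −1.39 with hMOF siRNA in both lines and −0.95 with scramble, so it lay past 2-fold in the first contrast only. S100A11 has several pseudogenes, and reads of such copies by its probes were not examined here.

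S100A13, which takes part in the release of FGF1 without a signal peptide, had signals of 1691 and 1982 in H1299 (hMOF siRNA and scramble) against 2020 and 1810 in A549 (202598_at). The lines overlapped, with log2 ratios of −0.25 and 0.13. The other probe set, 213481_at, gave 185 and 148 in H1299 against 120 and 129 in A549, with ratios of 0.53 and 0.16, so the 2 probe sets disagreed in sign with hMOF siRNA, and their average was at 0.14. S100A14, an epithelial member that can signal through RAGE, lay below the signal minimum on its 1 probe set (218677_at). It gave 63.6 and 70.1 in H1299 against 67.3 and 68.6 in A549, and the lines overlapped.

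**Figure D2:**
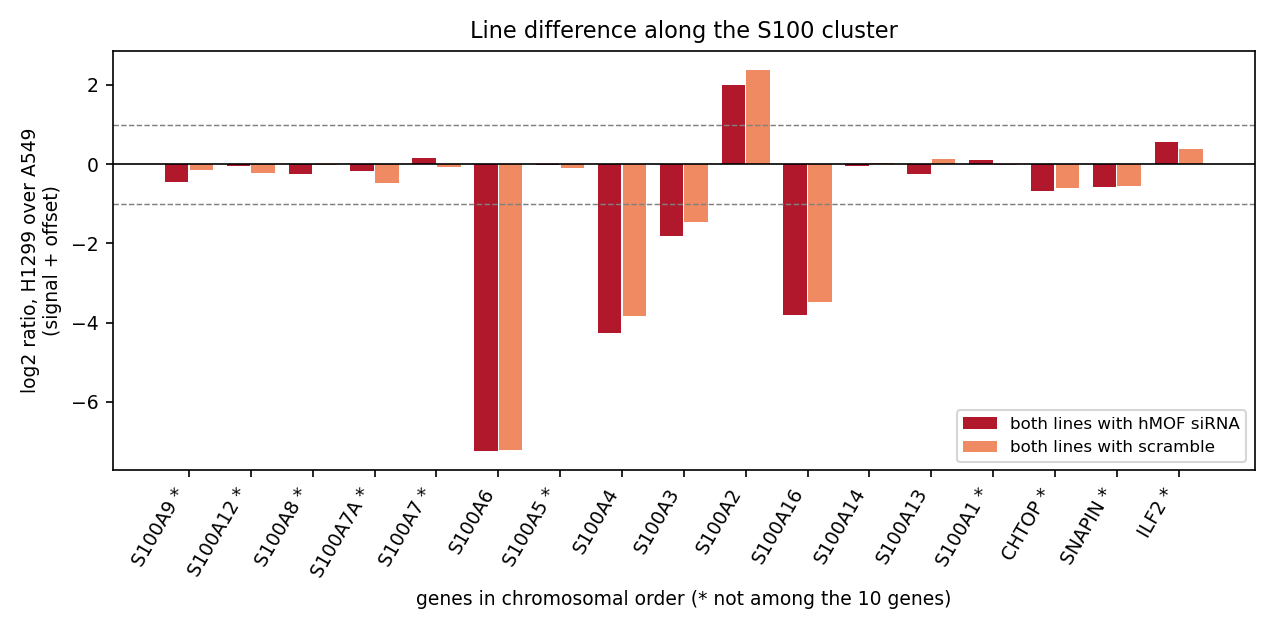
Log2 ratio of H1299 to A549 (signal plus offset) for 17 genes in chromosomal order from S100A9 to ILF2, with hMOF siRNA in both lines (red) or scramble in both (orange), brightest probe set per gene. Dashed lines mark 2-fold; S100A6, S100A4, S100A3 and S100A16 point down, S100A2 points up, and the other genes lie within 2-fold, among them all those with an asterisk, which are not among the 10.

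The line difference was not uniform along the chromosome. In the RefSeq gene table (GRCh38.p14, used here only for the order of genes), S100A6, S100A5, S100A4, S100A3, S100A2, S100A16, S100A14, S100A13 and S100A1 follow each other in this order, with no other protein-coding gene between them. S100A2, higher in H1299, stands between S100A3 and S100A16, both lower there. S100A5, between S100A6 and S100A4, had signals of 42.9 and 48.9 in H1299 (hMOF siRNA and scramble) against 44.4 and 53.9 in A549, below the signal minimum, and S100A1 had 72.97 and 68.95 against 65.4 and 70.5. S100A10 and S100A11 are next to each other and are parted from S100A6 by 52 protein-coding genes. Of the 10 S100 genes outside the described set, 2 passed the minimum. These were S100A7A (232220_at), a psoriasin relative, with 164 and 136 in H1299 against 189 and 202 in A549, and S100A9, a calgranulin of myeloid cells, with 94.6 and 104 against 141 and 118. Neither was called between lines or with hMOF siRNA by limma.

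With hMOF siRNA, none of the 9 kept genes was 2-fold away from scramble in either line, where 3.43% of all kept genes were in H1299 and 1.86% in A549. In H1299 the ratio of hMOF siRNA to scramble was below 0 on the log2 scale for 8 of the 9 genes. Of all kept genes, 51.5% were below 0 there, and the medians were −0.24 for the 9 genes and −0.01 over all genes. In A549 the ratio was below 0 for 5 of the 9, where 53.6% of all kept genes were (median −0.05, against −0.02). When a gene's kept probe sets were averaged, the H1299 count was 6 of 9, because S100A10 and S100A13 changed sign. After quantile normalization the A549 count was 4 of 9 and the median 0.04. These counts describe 9 genes on the same pair of arrays and are not 9 repeats. As the genes were chosen with the siRNA contrast in view too, nothing is read from the counts.

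**Figure D3:**
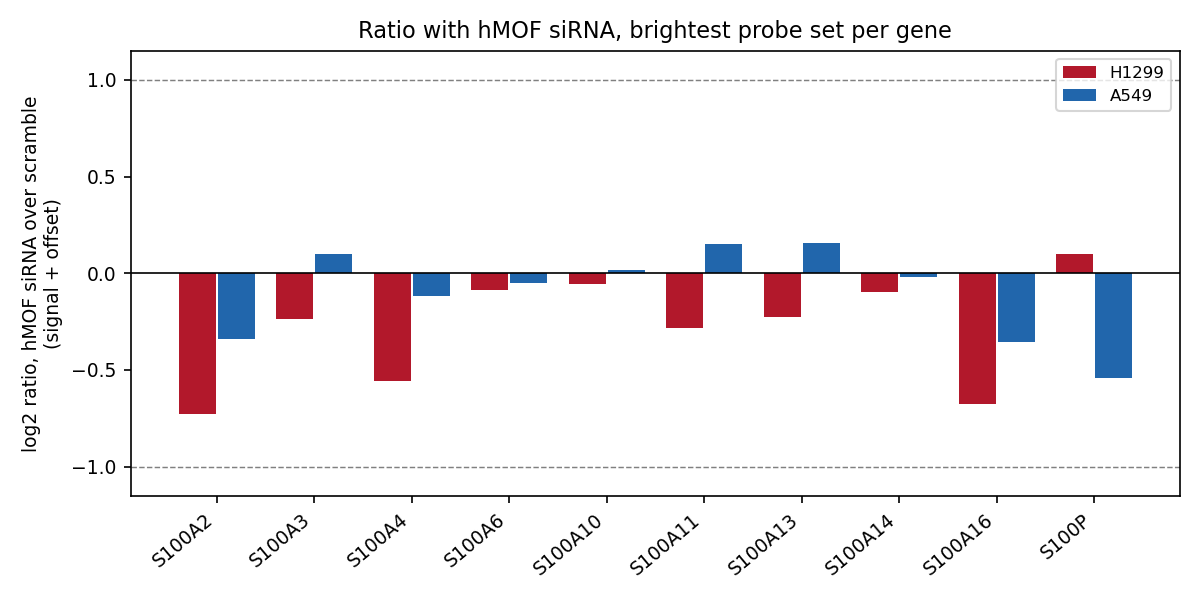
Log2 ratio of hMOF siRNA to scramble (signal plus offset) in H1299 (red) and A549 (blue) for the brightest probe set of each of the 10 genes, 1 array against 1 array per bar. Dashed lines mark 2-fold, which no bar reaches; the lowest are S100A2 at −0.73 in H1299 and S100P at −0.54 in A549.

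The lowest ratios with hMOF siRNA belonged to S100A2, S100A16 and S100A4 in H1299 and to S100P in A549. S100A2 had 59.5% of its scramble signal with hMOF siRNA in H1299 and 76.2% in A549, at log2 ratios of −0.73 and −0.34. Among all kept genes, 4.84% had a ratio as low or lower in H1299 and 14.9% in A549. Nothing is read from these shares, as S100A2 was chosen with the siRNA contrast in view too. S100A16 had 59.4% of its scramble signal in H1299 and 78.1% in A549 (log2 −0.67 and −0.35), so for both genes the ratio was below 0 in each line. S100A4 stood at −0.56 in H1299, with 66.2% of its scramble signal, and at −0.12 in A549.

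S100P, which lay above the lower quartile in A549 alone, had 67.9% of its scramble signal there with hMOF siRNA (log2 −0.54). Of all kept genes, 6.85% had a ratio as low or lower in A549, and nothing is read from that share of a chosen gene. Its H1299 ratio of 0.10 compares signals of 25.8 and 22.1, both under the lower quartile. S100A6 stood at −0.09 in H1299 and −0.05 in A549, and S100A10 at −0.06 in H1299 and 0.02 in A549. S100A11 and S100A13 were at −0.28 and −0.23 in H1299 and at 0.15 and 0.16 in A549. S100A3 was at −0.24 and 0.10 and S100A14 at −0.10 and −0.02 (H1299 and A549). The second S100A13 probe set ran the other way, at 0.28 in H1299 and −0.09 in A549. With 1 array per group, whether the siRNA ratio differs between the lines could not be tested.

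Genes of the same biology were then compared on lists that hold none of the 10 S100 genes, with limma over the 4 arrays and Benjamini-Hochberg adjustment over all 12825 genes at a threshold of 0.05. The siRNA comparison had cell line as a block, and the line comparison had siRNA as a block, so the only repeats are the 2 lines or the 2 siRNAs. Over 8 lists, 64 genes were kept. In H1299 against A549, 15 of them were called higher, where 25.1% of all genes were, and 24 were called lower, where 27.3% were.

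Annexins, the calcium-dependent membrane-binding proteins to which several S100 dimers dock, were mostly lower in H1299: 9 of 11 were lower, 1 was higher and 1 was not called. Of the 9, 4 (ANXA3, ANXA9, ANXA10 and ANXA13) passed the signal minimum only through A549 and so could only be called lower, and the other 5 passed on their H1299 mean too. The median log2 difference of the 11 annexins was −1.75, against −0.03 over all genes. ANXA3 had signals of 38.4 and 47.5 in H1299 (hMOF siRNA and scramble) against 1959 and 2150.0 in A549, a log2 difference of −4.86 (SE 0.11, limma adjusted p = 4.56e-05). ANXA13 was at −2.73, with 18.9 and 14.1 in H1299 against 192 and 382 in A549. As the H1299 signals of both genes were dim, the sizes and order of such differences depend on the offset. ANXA6 was the 1 annexin called higher, at 1.01 (limma adjusted p = 0.00280), with 1046 and 702 in H1299 against 555 and 302 in A549.

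**Figure D4:**
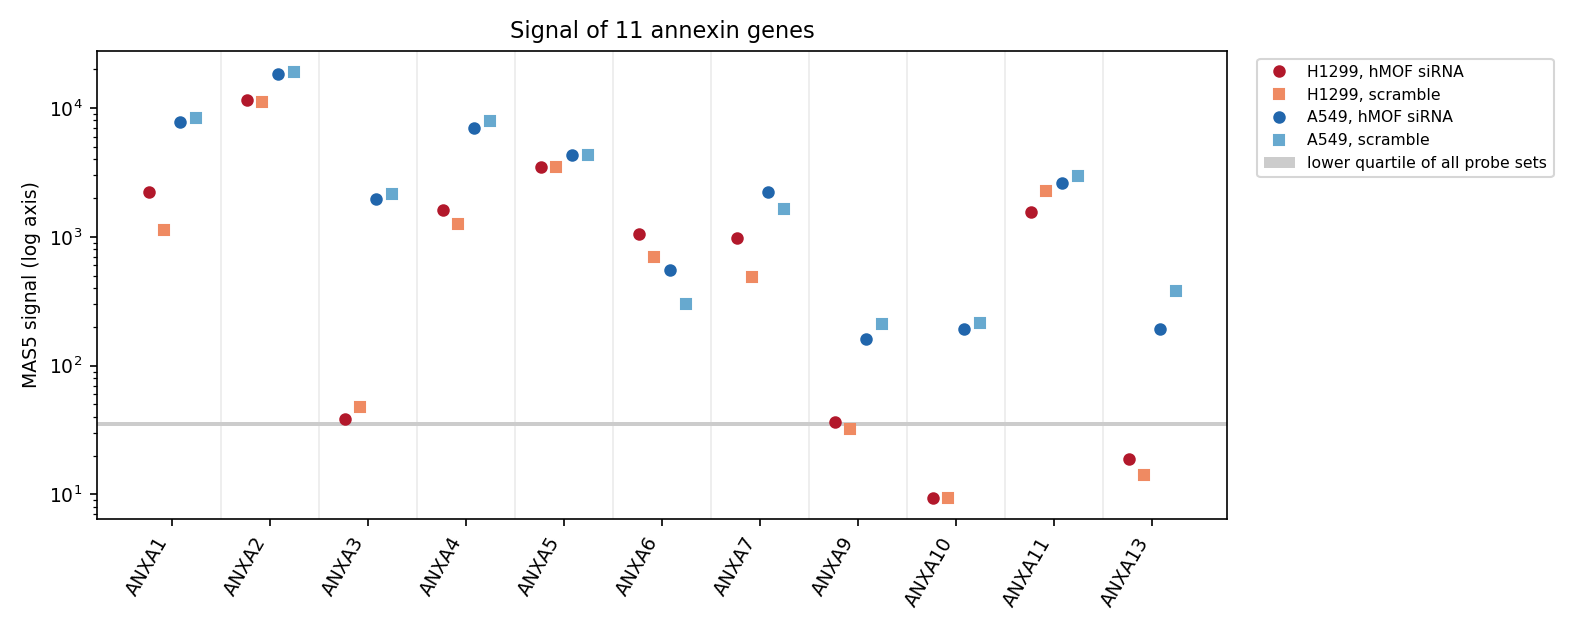
MAS5 signal (log axis) of 11 annexin genes on the 4 arrays, brightest probe set per gene, 1 array per point, with H1299 in red and orange and A549 in blue. The grey band is the range of the arrays' lower quartiles; ANXA6 is higher in H1299 and ANXA3, ANXA9, ANXA10 and ANXA13 lie near or below the band there.

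The annexin partners of the described S100 genes were looked up after their values had been seen. ANXA2, the partner of S100A10, had signals of 11429 and 11103 in H1299 against 18326 and 18995 in A549 (log2 difference −0.73, limma adjusted p = 0.00534). Its 4 probe sets gave ratios between −0.51 and −0.87, so like S100A10 it was high in both lines and lower in H1299 by under 2-fold. ANXA1, the partner of S100A11, had 2224 and 1122 in H1299 against 7785 and 8328 in A549 (−2.33, limma adjusted p = 0.00241). ANXA11, which binds S100A6, had 1554 and 2265 in H1299 against 2613 and 2951 in A549 (−0.56, limma adjusted p = 0.0234).

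Other intracellular partners split both ways, with 3 of 16 higher in H1299, 3 lower and 10 not called. PPFIBP1, a liprin that binds S100A4, was higher at 1.58, and EZR, encoding the ezrin bound by S100P, was higher at 0.80. MYH14, a non-muscle myosin heavy chain, was lower at −2.32, and the synaptotagmin gene SYT1 was lower at −1.29. Among 5 receptor genes kept, BSG, encoding the S100A9 receptor basigin, was higher at 0.51, ALCAM was lower at −1.99 and NPTN at −0.97, and AGER and TLR4 were not called. AGER, encoding RAGE, had signals between 122 and 152 on all 4 arrays, with the lines overlapping.

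In the plasminogen system, to which S100A10 belongs, PLAT and PLAU, the tissue and urokinase plasminogen activators, were higher in H1299 at 1.17 and 0.95. SERPINE2, encoding a serine protease inhibitor, was lower at −1.03, and 3 of the 6 kept genes were not called. Of 13 neighbours of the S100 genes on chromosome 1, 4 were higher, 4 lower and 5 not called, and the largest differences were GATAD2B at 0.92, CRTC2 at 0.58, CHTOP at −0.64 and SNAPIN at −0.56. Their sizes are not set against those of the described S100 genes, which were chosen with this contrast in view. Among 11 EF-hand calcium sensors outside the S100 family, 4 were higher, 5 lower and 2 not called, with SRI (sorcin) at 1.08 and CETN3 at 0.71 among the higher and CETN2 at −1.45 and RCN1 at −0.95 among the lower. None of the 5 fused S100-type genes with a probe set passed the minimum, and their signals ran from 3.32 to 61.9. Without siRNA as a block, 20 of the 64 listed genes were called between lines in place of 39.

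With hMOF siRNA over both lines, limma called 0 of these 64 genes, where 1.16% of all genes were called higher and 2.41% lower. At an unadjusted limma p under 0.05 there were 16, with 7 higher and 9 lower. The share of all genes under this unadjusted threshold was not computed, so nothing is read from that count. ANXA6 had the lowest adjusted p of the lists, 0.0595, with log2 ratios of 0.56 in H1299 and 0.82 in A549. PLAT was at −0.87 in H1299 and −0.54 in A549 (limma adjusted p = 0.0626), and NPTN at −0.89 and −0.54 (0.0645). S100PBP, encoding an S100P-binding protein, was at −0.50 and −0.55 (0.0737), and MYH9, encoding the myosin bound by S100A4, was at 0.78 and 0.46 (0.0740). These 5 genes were named after their values had been seen. Each pointed the same way in both lines, but the fit favours genes whose ratios agree between lines. Their shared direction thus adds no support.

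For each kept S100 gene, the gene outside the described set with the closest profile was taken from the distance between log2 values over the 4 arrays, each gene centred on its own mean. CA12 (215867_x_at) was closest to S100A6 (distance 0.21 in log2 units), with signals of 28.7 and 27.7 in H1299 (hMOF siRNA and scramble) against 7132 and 8353 in A549. CFB was closest to S100A4 (0.15), FADS2 to S100A16 (0.07), FGL1 to S100P (0.18) and TMEM108 to S100A2 (0.14). LINC00294 was closest to S100A3 (0.03), FKBP9 to S100A11 (0.07), IGLL3P to S100A10 (0.02) and JAKMIP1 to S100A13 (0.02). With 4 arrays such a profile holds little more than a line difference and 2 siRNA ratios.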

How the data were processed

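Total RNA from H1299 and A549 cells was labelled as biotinylated cRNA from 6 ug and measured on Affymetrix arrays, per the labels' protocols. Each probe set's deposited intensity is on a linear scale and came from MAS5, per the submitters' processing notes. How MAS5 was scaled is not given in the sources used here. The 4 array columns were matched by accession and grouped by source name. Probe sets were named from the platform annotation (41091 with 1 gene, 1801 with several), with symbols checked by gene identifier in the RefSeq table of GRCh38.p14; 10 listed genes are not analysed here.

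The offset of 29.06 is the 20th and the minimum of 78.2 the 50th percentile of all signals and of probe set means. Each gene was read by its brightest kept probe set. limma 3.58.1 (R 4.3.3; lmFit, eBayes) was fitted to all 12825 genes, with 1 residual degree of freedom and 3.74 prior degrees. The siRNA fit was run on simulated data with noise of equal size in every gene. The noise of these data differs between genes, so that run does not vouch for the calls. Figures used matplotlib 3.10.9.

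The members, gene lists and tests were chosen with earlier results of these data known. Genes were named by a rule: all members, KAT8, list genes called with hMOF siRNA, the 2 largest called line differences each way per list, and the closest profile per member; exceptions are stated. Alternatives were offsets of 0 or 56.5, quantile normalization, median centring, no minimum or one of 179, averaged probe sets, no _x_at probe sets, no block and an eBayes trend. The number of arrays limits the precision.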

Additional observations from a re-analysis of the deposited data

Results flagged for a closer look

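Of the 9 kept S100 genes, 5 had log2 ratios of hMOF siRNA to scramble on opposite sides of 0 in the lines. With 1 array pair per line these differences were not tested. How many of all kept genes changed sign between H1299 and A549 was not computed, so the count of 5 is only a description. The H1299 minus A549 difference was 0.64 for S100P (0.10 in H1299, −0.54 in A549), where the H1299 signals were under the arrays' lower quartile. It was −0.44 for S100A11 (−0.28 in H1299, 0.15 in A549), −0.38 for S100A13 (−0.23, 0.16), −0.33 for S100A3 (−0.24, 0.10) and −0.074 for S100A10 (−0.06, 0.02). The second probe set of S100A13 differed the other way, by 0.36, and that of S100A10 by 0.20. When kept probe sets were averaged, S100A10 (0.06 in H1299, 0.003 in A549) and S100A13 (0.03, 0.03) no longer differed in sign. After quantile normalization S100A6 did differ in sign (−0.11 in H1299, 0.04 in A549).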

How the results depend on the processing

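The counts of S100 genes at least 2-fold apart stayed within 1.5 times under each of 8 settings. They were 6 to 7 and 5 to 6 between lines (hMOF siRNA and scramble) and 0 with hMOF siRNA against scramble. Of 300 recomputed log2 ratios, 296 moved by at most 1.5-fold and 0 of those past 2-fold changed sign. Many of them could not move. Another minimum leaves the ratio of a kept S100 gene as it was, and no S100 member probe set is an _x_at one. Averaging probe sets changes only S100A10 and S100A13. The 4 that moved were the line ratios with no offset of S100A6 (−8.18 and −8.06) and S100P (−4.84 and −5.63), as dim signals make them depend on the offset. The count of listed genes called with hMOF siRNA was 0 as reported. It was 1 with no offset (PLAT), 2 after quantile normalization (ANXA6 and MYH9), 1 with the higher minimum (ANXA6), 1 with averaged probe sets (ANXA6) and 1 with an eBayes trend (NPTN). The count of listed genes called between lines was 20 without the block, 4 higher and 16 lower, against 39 with it, 15 higher and 24 lower. The cause of these moves was not tested. Median centring and quantile normalization moved the median of all genes by under 0.1. No array could be left out with a test, since each group has 1 array.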
